A study of Mus musculus with 6 samples.

Results

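Genes for heparan sulfate, chondroitin sulfate and hyaluronan were compared between PICs and satellite cells of mouse hindlimb muscle. They were taken as all genes with a probe set of their own whose symbol is that of a glypican, a syndecan, versican, Cspg4, aggrecan, a hyaluronan synthase, or an enzyme that starts, extends, modifies or sulfates the chains. The rule found 59 genes among 18193 on the table, with 117 of 45037 probe sets. For each gene the probe set with the highest mean log2 intensity over the 6 arrays was used. PICs are cells of the muscle interstitium marked by the protein PW1, and satellite cells are the stem cells that lie along muscle fibres; each population had 3 biological replicates, 1 array each. The mice were C57 black 6, 7 to 9 days old, and the labels name no mutation and no treatment. Hindlimb muscle was digested, and both populations were sorted by their CD34 and Sca1. How many animals each array stands for is not given in the sources used here.

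Heparan sulfate and chondroitin sulfate are long sugar chains built in the Golgi on a core protein, from a shared linker of sugars that starts with xylose. Glypicans are held to the cell surface by a lipid anchor and syndecans span the membrane, while versican and aggrecan are secreted into the matrix. The chains bind growth factors such as FGFs, HGF and Wnts, and the pattern of sulfate groups along them sets what they bind. Hyaluronan has no core protein and no sulfate, and is spun out through the plasma membrane by its synthases.

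A gene was tested when its log2 intensity exceeded 4 (an intensity of 16, here the low value level) on at least 3 of the 6 arrays, and called when its limma adjusted p was under 0.05 with at least a 2-fold difference. Of the 59 genes, 41 were tested, and 22 of these (53.7%) were called, beside 29.8% of all 10855 genes tested. In PICs 16 were higher (39.0% of those tested, beside 16.7% of all genes tested), and in satellite cells 6 were higher (14.6%, beside 13.0%). The filter sets which members count as tested, so these shares are a description only. The other members were 19 that were tested and not called and 18 that did not pass the filter. Without the filter, over all genes on the table, 20 of the 59 (33.9%) were called, beside 16.7% of 18193 genes. By direction, 14 members (23.7%) were higher in PICs, beside 9.36% of genes, and 6 members (10.2%) were higher in satellite cells, beside 7.31%. With the replicate number as a block, 17 members were called with PICs above and 7 with satellite cells above, where 30.4% of all genes tested were called (17.1% with PICs above and 13.3% with satellite cells above). The members were chosen with earlier results known, so no test of the list as a whole was made. Arrays of the populations did not overlap for 31 members, the 22 called among them. The PIC arrays were the higher ones in 24 members and the satellite arrays in 7, where 31.3% and 33.2% of the genes tested were parted in those directions. B3gat1 and Chst13 passed the filter through the satellite arrays alone, and a gene that passes in this way has to differ. The 18 members under the filter, with no intensity above 20, were Gpc2, Gpc5, B3gat2, Extl1, Ndst3, Ndst4, Hs3st2, Hs3st3a1, Hs3st4, Hs3st6, Hs6st3, Chst3, Chst4, Chst5, Chst8, Chst9, Chst10 and Has3. In sorted bulk samples, more cells that make a transcript and more transcript per cell cannot be told apart.

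**Figure D1:**
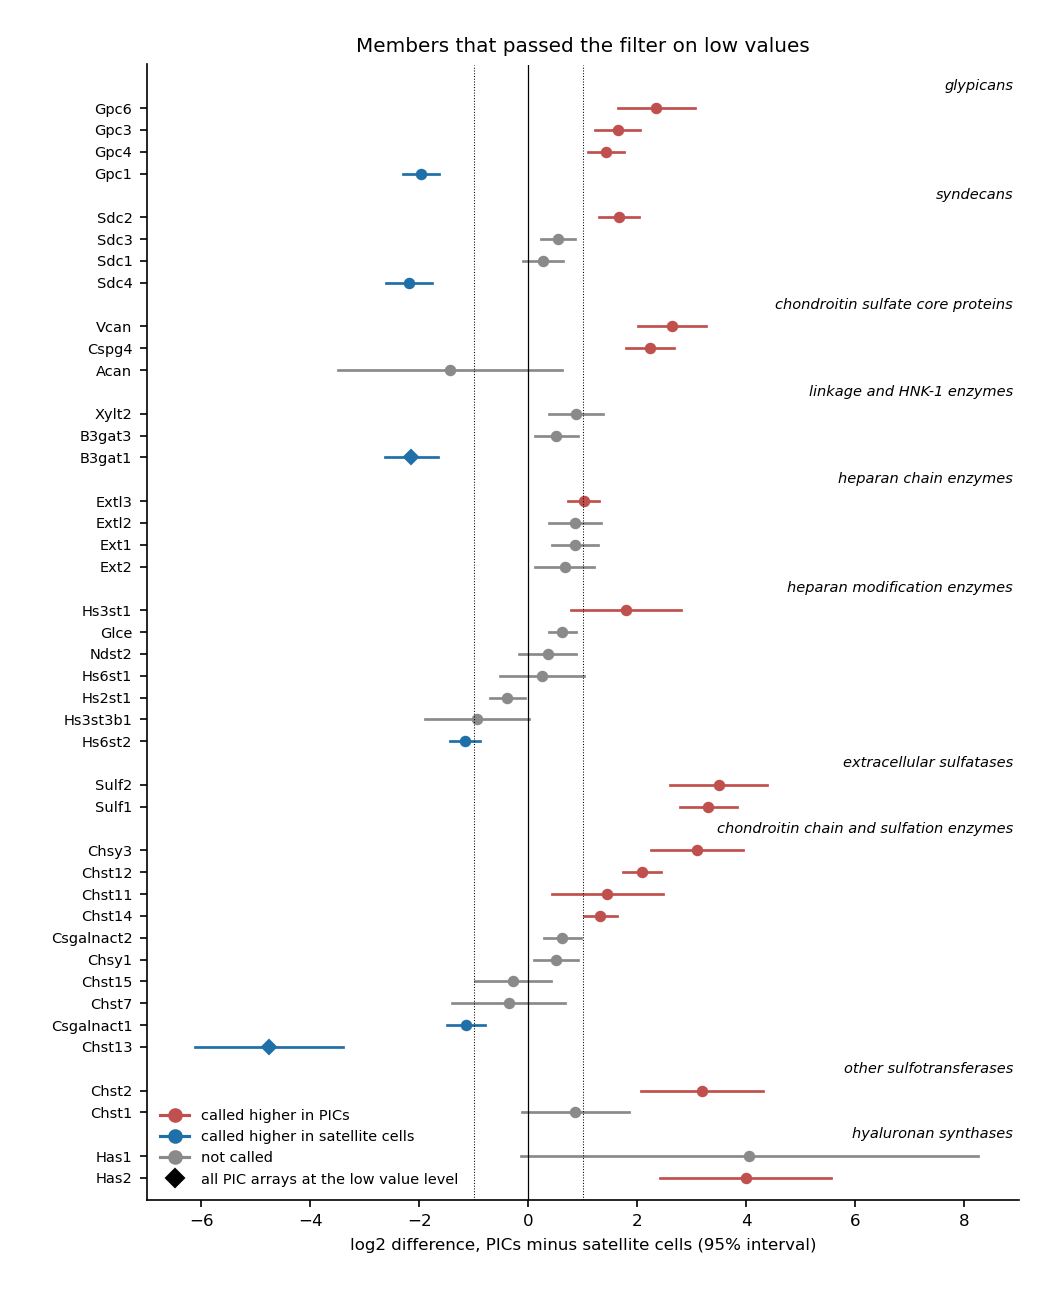
Fitted log2 difference (PICs minus satellite cells) of the 41 tested genes with its 95% interval, 3 arrays per population, ordered by role. Dotted lines mark 2-fold; red genes were called higher in PICs (16), blue genes higher in satellite cells (6) and grey genes were not called (19); diamonds mark Chst13 and B3gat1, whose PIC arrays all lay at the low value level.

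Each array had a median intensity of 10, and 44.7% to 45.5% of its probe sets lay above 16. Correlations over the genes tested were 0.956 to 0.986 within a population and 0.800 to 0.850 between populations. The sorting gene Cd34 was 3.79-fold higher in PICs, and Peg3, which encodes PW1, differed by 0.19 (95% interval -0.05 to 0.44). The 5 myogenic markers were all higher in satellite cells, with summed intensities of 633 to 1977 in PICs and 20631 to 22322 in satellite cells. The 5 interstitial mesenchymal markers were all higher in PICs, with sums of 25210 to 31219 in PICs and 7817 to 8757 in satellite cells. Clec3b among them passed the filter through the PIC arrays alone, so it had to differ. The 5 endothelial markers were not called (-0.23 to 0.27), with sums of 1211 to 4332 in PICs and 2033 to 2998 in satellite cells. The 3 leukocyte markers tested were not called (-0.27 to 0.28), and the 5 on the table summed to 623 on the PIC array numbered 1 and 779 on the satellite array numbered 1, against 65 to 118 on the other 4 arrays. Of 3 Schwann markers on the table, S100b and Cdh19 were higher in PICs, and Sox10 was not called (1.22, adjusted p = 0.0923) but was called higher in PICs with the replicate block (adjusted p = 0.00779), without PICs replicate 3 and without satellite replicate 1. The 3 had sums of 331 to 438 in PICs and 59 to 141 in satellite cells. Cdh19 passed the filter through the PIC arrays alone, so it too had to differ. Of 3 tendon markers tested, Thbs4 was higher in PICs (2.44) and Mkx higher in satellite cells (-1.44, lost without the filter, with log2(value + 16), with array weights and without both arrays numbered 3). Tnmd was not called (-0.83, adjusted p = 0.104), with 2465, 2964 and 1168 in PICs against 3537, 2871 and 4721 in satellite cells. The 4 on the table summed to 13312 to 16470 in PICs and 4753 to 8444 in satellite cells. Thbs4 made up most of the PIC sums, with 10809, 13222 and 15276 in PICs against 2071, 1826 and 3620 in satellite cells. The part of these other cell types in the results was not tested.

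The glypican family was divided, with Gpc3, Gpc4 and Gpc6 higher in PICs and Gpc1 higher in satellite cells. Gpc1, a glypican that acts as a co-receptor for FGF2, had intensities of 1345, 1448 and 1126 in PIC replicates 1, 2 and 3, against 5008, 5503 and 4824 in satellite replicates 1, 2 and 3. Every satellite array exceeded every PIC array, and the log2 difference was -1.97 (95% interval -2.30 to -1.65; limma, adjusted p = 0.0001). Gpc3, whose loss causes an overgrowth syndrome in humans, had 13374, 14289 and 11681 in PICs against 3385, 4597 and 4747 in satellite cells. It was 3.11-fold higher in PICs (adjusted p = 0.00036). Gpc4, the gene next to Gpc3 on the X chromosome, had 2774, 3038 and 3277 in PICs against 988, 1142 and 1272 in satellite cells. The neighbours thus had the same direction, with a log2 difference of 1.64 for Gpc3 and 1.42 for Gpc4 (adjusted p = 0.000285). Another Gpc4 probe set gave a difference of 0.81, under the 2-fold threshold (adjusted p = 0.00487). Gpc6 had 1493, 1753 and 1457 in PICs against 311, 202 and 457 in satellite cells, a 5.10-fold difference (adjusted p = 0.000753). All 4 Gpc6 probe sets above the filter were called higher in PICs, at 1.58 to 2.55 on the log2 scale. Gpc5, the neighbour of Gpc6 on chromosome 14, and Gpc2 did not pass the filter.

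Among the syndecans, Sdc2 was higher in PICs and Sdc4 higher in satellite cells, while Sdc1 and Sdc3 were not called. Sdc4, a syndecan of focal adhesions that is used as a surface marker of satellite cells, had intensities of 641, 472 and 503 in PICs, against 2056, 2467 and 2839 in satellite cells. Its log2 difference was -2.19 (95% interval -2.62 to -1.76; adjusted p = 0.000165), and -2.11 on its other probe set above the filter. Sdc2, the syndecan of fibroblast-like cells, had 4043, 4816 and 3373 in PICs against 1247, 1295 and 1263 in satellite cells. This was a 3.18-fold difference (adjusted p = 0.00023), and the 3 Sdc2 probe sets ranged from 1.67 to 2.48 on the log2 scale. Sdc3, also known as a marker of satellite cells, had 433, 515 and 427 in PICs against 297, 344 and 297 in satellite cells. The PIC arrays lay above the satellite arrays here, by 0.55 (adjusted p = 0.0114), which is under the 2-fold threshold. Sdc1 had 2397, 2771 and 3099 in PICs against 2028, 2218 and 2632 in satellite cells, with overlap between them. The 95% interval of its log2 difference ran from -0.11 to 0.64. The probe set used for Sdc1 carries a suffix that marks possible hybridisation to related transcripts.

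Of the chondroitin sulfate core proteins, versican and Cspg4 were higher in PICs and aggrecan was not called. Vcan, a large hyaluronan-binding proteoglycan of loose and developing matrix, had intensities of 11159, 12880 and 11751 in PICs, against 1432, 1694 and 2846 in satellite cells. It was 6.25-fold higher in PICs (95% interval of the log2 difference 2.02 to 3.27; adjusted p = 0.000294). The 2 further Vcan probe sets above the filter gave larger log2 differences, 3.44 and 3.46. Cspg4, which encodes the membrane proteoglycan NG2, had 2258, 2451 and 1894 in PICs against 565, 381 and 469 in satellite cells, a 4.70-fold difference (adjusted p = 0.000169). NG2 also marks mural cells, and the other mural markers on the list differed in another way. Rgs5, Abcc9 and Kcnj8 were not called, with log2 differences of -0.27, 0.29 and 0.47, and Notch3 was higher in satellite cells (-1.26, adjusted p = 0.00992), a call lost without the filter, without PICs replicate 3 and without both arrays numbered 2 or 3. The summed intensity of the 5 mural markers, Cspg4 included, was 6198 to 14666 in PICs and 9382 to 12969 in satellite cells.

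**Figure D2:**
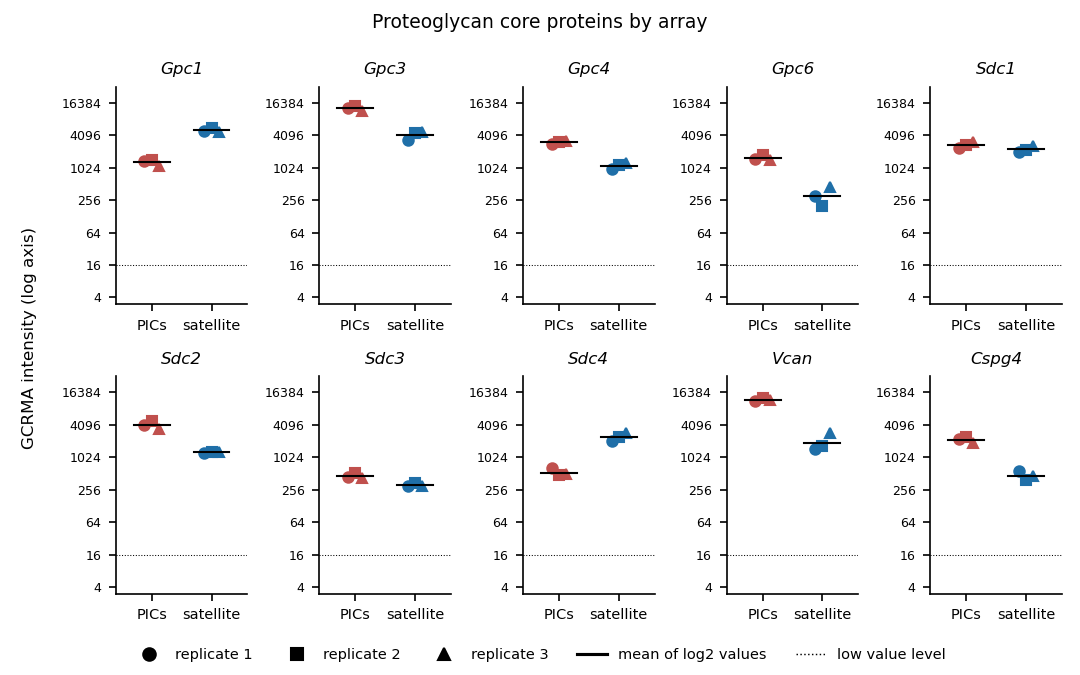
GCRMA intensity (log axis) of 10 proteoglycan core protein genes on each array, PICs left and satellite cells right in each panel; symbols are replicate numbers and black bars the means of the log2 values. The populations are parted in every panel except Sdc1; Gpc1 and Sdc4 are higher on the satellite arrays and the other 7 parted genes on the PIC arrays.

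Promoter windows are printed for the core protein genes called here that have a RefSeq entry as examples of members called in either direction. Each window holds the 250 bases before the gene's start on GRCm38.p6, written 5′ to 3′ on the gene's strand, and capitals mark GGGCGG or its reverse complement CCGCCC, the GC box bound by Sp factors.
Gpc3: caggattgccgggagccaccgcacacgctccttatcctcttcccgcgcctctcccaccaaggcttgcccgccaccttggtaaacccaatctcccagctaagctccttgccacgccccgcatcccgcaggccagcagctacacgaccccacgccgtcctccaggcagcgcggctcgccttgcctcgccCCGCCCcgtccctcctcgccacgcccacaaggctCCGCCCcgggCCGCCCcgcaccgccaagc
Gpc4: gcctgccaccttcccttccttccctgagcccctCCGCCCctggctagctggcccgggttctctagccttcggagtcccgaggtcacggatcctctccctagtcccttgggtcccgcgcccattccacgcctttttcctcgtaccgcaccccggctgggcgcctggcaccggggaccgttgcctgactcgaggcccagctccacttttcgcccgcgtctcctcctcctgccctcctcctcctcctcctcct
Vcan: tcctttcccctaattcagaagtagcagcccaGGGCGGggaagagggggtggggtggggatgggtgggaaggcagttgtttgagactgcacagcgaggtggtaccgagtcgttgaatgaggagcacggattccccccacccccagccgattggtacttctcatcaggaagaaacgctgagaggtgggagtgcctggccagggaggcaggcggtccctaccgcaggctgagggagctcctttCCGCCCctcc
Cspg4: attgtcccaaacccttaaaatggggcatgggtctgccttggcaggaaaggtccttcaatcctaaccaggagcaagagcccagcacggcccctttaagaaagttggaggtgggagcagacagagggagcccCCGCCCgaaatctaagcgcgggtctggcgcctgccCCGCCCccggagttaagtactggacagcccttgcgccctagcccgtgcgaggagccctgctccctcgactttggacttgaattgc
Sdc4: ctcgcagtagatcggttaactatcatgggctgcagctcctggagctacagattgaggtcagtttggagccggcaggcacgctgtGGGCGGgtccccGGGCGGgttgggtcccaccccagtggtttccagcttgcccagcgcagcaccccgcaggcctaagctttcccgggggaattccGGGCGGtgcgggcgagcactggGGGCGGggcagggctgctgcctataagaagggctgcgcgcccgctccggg
The windows lie at chrX:52613975-52614224 (Gpc3, minus strand), chrX:52164924-52165173 (Gpc4, minus strand), chr13:89742513-89742762 (Vcan, minus strand), chr9:56864854-56865103 (Cspg4, plus strand) and chr2:164443189-164443438 (Sdc4, minus strand). GC box matches numbered 3 before Gpc3, 1 before Gpc4, 2 before Vcan, 2 before Cspg4 and 4 before Sdc4. The E-box CAGCTG, which myogenic factors bind, was in none of these 5 windows, and neither was the E-box CAGGTG, which on the other strand reads CACCTG. Over all 32851 RefSeq windows of this length, 32.7% held the GC box, 13.0% held CAGCTG and 17.2% held CAGGTG on either strand. Of 45 members with an entry, CAGCTG lay before 2 of 10 called higher in PICs (Sulf2 and Chst11), 1 of 4 called higher in satellite cells (B3gat1) and 6 of the other 31. The GC box lay before 9 of the 10, 2 of the 4 and 22 of the 31. CAGGTG lay before 1, 0 and 2 of them. The shares over all windows are per window, whereas the member counts are per gene over all its windows. Some members, Sulf2 among them, have more than 1 window, so the measures are not alike. Both strands were searched and overlapping matches counted. A match is a description of the letters only.

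The 6 tested members that build the linker and the heparan backbone had higher means in PICs, by 0.52 to 1.01 on the log2 scale. Of the 6, 1 was called, Extl3, where 16.7% of all genes tested were called higher in PICs. The linker galactosyltransferases, which are not members, differed from each other. B4galt7 was called higher in PICs (1.05, adjusted p = 0.000478), and B3galt6 had overlapping arrays and was not called (-0.27, adjusted p = 0.228). The B4galt7 call was lost with the mean of its probe sets above the filter and with log2(value + 16). It was also lost without PICs replicate 2 (0.98) and without both arrays numbered 2. The B4galt7 probe set used carries a suffix that marks possible hybridisation to related transcripts. B4galt7 and B3galt6 are named here after their values were seen. Xylt2, which adds the first xylose, and B3gat3, which completes the linker, had log2 differences of 0.87 (adjusted p = 0.0117) and 0.52 (adjusted p = 0.0323), and neither reached 2-fold. Ext1 and Ext2, the subunits of the heparan sulfate polymerase, differed by 0.85 (adjusted p = 0.00656) and 0.67 (adjusted p = 0.0441). The arrays of Ext2 overlapped between the populations. Ext1 had 2901, 3367 and 2436 in PICs against 1455, 1456 and 1908 in satellite cells, so that the PIC arrays were all above the satellite arrays. Extl2 differed by 0.86 (adjusted p = 0.00997). Extl3, which starts the heparan chain, had 1815, 1844 and 1841 in PICs against 820, 896 and 1018 in satellite cells. Its difference of 1.01 stood just over the threshold (adjusted p = 0.000593), and without satellite replicate 1 it was 0.94. B3gat1, which makes the HNK-1 carbohydrate epitope and no part of the linker, had 7, 6 and 8 in PICs against 27, 27 and 40 in satellite cells. The PIC arrays held no level above 16, so for B3gat1 satellite cells were at least 1.92-fold higher. This bound is under the 2-fold threshold, and B3gat1 counts among the 6 called by its fitted difference (-2.15). It passed the filter through the satellite arrays alone and had to differ, so no p-value is given for it.

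Of the 7 heparan modification enzymes tested, 28.6% were called, beside 29.8% of all genes tested. Hs6st2 was higher in satellite cells (14.3%, beside 13.0%) and Hs3st1 higher in PICs (14.3%, beside 16.7%). Hs6st2, which adds 6-O-sulfate groups, had intensities of 1870, 2185 and 2038 in PICs, against 4334, 4791 and 4540 in satellite cells. The difference was -1.17 (95% interval -1.44 to -0.89; adjusted p = 0.000283), and -1.68 on another probe set. Hs6st1, of the same activity, had 305, 328 and 142 in PICs against 197, 215 and 198 in satellite cells. The arrays overlapped, and the interval of its difference ran from -0.52 to 1.03. Hs2st1, the single 2-O-sulfotransferase, differed by -0.38 (adjusted p = 0.0503) and Glce, the epimerase that acts before it, by 0.62 (adjusted p = 0.00261). Ndst2, which swaps acetyl for sulfate groups on the backbone, differed by 0.36 (95% interval -0.17 to 0.88). Hs3st1, which makes the binding site for antithrombin, had 28, 46 and 26 in PICs against 17, 8 and 6 in satellite cells. It was called (1.79, adjusted p = 0.0112) from values close to the low value level, with 1 satellite array above it. The call was lost without the filter (adjusted p = 0.0626). The Hs3st1 probe set may detect more than 1 transcript of the gene. Hs3st3b1 had 62, 66 and 99 in PICs against 86, 137 and 246 in satellite cells. Its arrays overlapped and it was not called (-0.95, adjusted p = 0.0838). Of the 14 heparan modification enzymes on the table, 7 did not pass the filter.

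Both extracellular sulfatases, which remove 6-O-sulfate groups from finished heparan chains outside the cell, were higher in PICs. Sulf1 had intensities of 3934, 3843 and 4346 in PICs, against 422, 299 and 536 in satellite cells. It was 9.90-fold higher in PICs (95% interval of the log2 difference 2.78 to 3.84; adjusted p = 9.61e-05), with 3.35 on its other probe set above the filter. Sulf2 had 2690, 2899 and 3043 in PICs against 300, 140 and 395 in satellite cells, an 11.3-fold difference (adjusted p = 0.000391). The Sulf2 probe set used carries a suffix that marks possible hybridisation to related transcripts. A further Sulf2 probe set gave 4.0 on the log2 scale, with 1473, 1605 and 1462 in PICs against 56, 83 and 181 in satellite cells. The third had 754, 771 and 825 in PICs against 529, 583 and 724 in satellite cells and was not called (0.37, adjusted p = 0.0826). The size of the Sulf2 difference thus depended on the probe set, while the PIC mean was the higher one on all 3.

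Chondroitin and dermatan enzymes included genes called in both directions. Chsy3, a synthase that extends the chondroitin chain, had intensities of 143, 184 and 287 in PICs, against 19, 18 and 35 in satellite cells. It was 8.58-fold higher in PICs (adjusted p = 0.000503), whereas Chsy1, with the same activity, differed by 0.51 (adjusted p = 0.0399). Chst12, a chondroitin 4-O-sulfotransferase, had 627, 765 and 624 in PICs against 171, 137 and 168 in satellite cells, a 4.24-fold difference (adjusted p = 0.000107). Chst14, which sulfates dermatan, had 1331, 1616 and 1290 in PICs against 557, 587 and 543 in satellite cells, a 2.50-fold difference (adjusted p = 0.000278). In each of these 3 called genes the PIC arrays lay above the satellite arrays. Chst11, another 4-O-sulfotransferase, had 44, 34 and 44 in PICs against 27, 8 and 15 in satellite cells, 1 of which was above the low value level. It was called at 1.45 (adjusted p = 0.0259), but not without the filter (adjusted p = 0.112), nor without any 1 of the PIC arrays or satellite replicate 3 (adjusted p = 0.0545 to 0.0723).

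Chst13 and Csgalnact1 were the chondroitin enzymes higher in satellite cells. Chst13, a further chondroitin 4-O-sulfotransferase, had 4, 7 and 4 in PICs against 230, 181 and 54 in satellite cells. All PIC arrays were under the low value level, so satellite cells were at least 8.19-fold higher. Chst13 too passed the filter through the satellite arrays alone and had to differ, so no p-value is given for it. Csgalnact1, which adds the sugar that starts a chondroitin chain, had 376, 361 and 285 in PICs against 738, 711 and 796 in satellite cells, a difference of -1.14 (adjusted p = 0.000743). Its second probe set gave -1.54. Csgalnact2, of the same activity, leaned the other way by 0.63 (adjusted p = 0.00913), under the 2-fold threshold. The 6-O-sulfotransferase gene Chst7 and Chst15, which makes a disulfated unit, had overlapping arrays and differences of -0.36 and -0.27. Chst2, which sulfates N-acetylglucosamine on other glycans, had 128, 167 and 72 in PICs against 8, 11 and 23 in satellite cells. It was called at 3.19 (adjusted p = 0.00146); its satellite mean was under the low value level with 1 array above it, so the size is uncertain. Chst1, a keratan sulfate sulfotransferase, differed by 0.86 (adjusted p = 0.116).

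**Figure D3:**
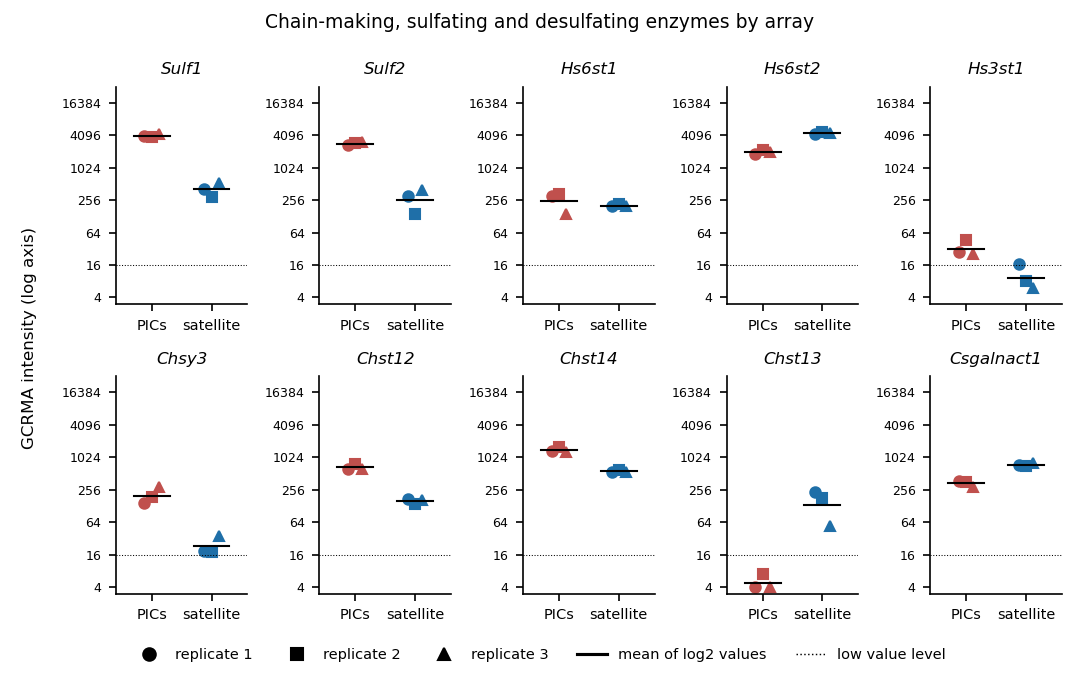
GCRMA intensity (log axis) of 10 enzyme genes on each array, PICs left and satellite cells right; symbols are replicate numbers and black bars the means of the log2 values. Sulf1, Sulf2, Hs3st1, Chsy3, Chst12 and Chst14 are higher on all PIC arrays, Hs6st2, Chst13 and Csgalnact1 on all satellite arrays, and Hs6st1 overlaps.

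Of the hyaluronan synthase genes, Has2 was called higher in PICs and Has1 was not called, with a wide spread between arrays in both. Has2, the main synthase of embryonic mesenchyme, had intensities of 429, 600 and 1243 in PIC replicates 1, 2 and 3, against 29, 25 and 110 in satellite replicates 1, 2 and 3. It was 15.9-fold higher in PICs (95% interval of the log2 difference 2.42 to 5.56; adjusted p = 0.00239), and a second probe set gave 4.93. Has1 had 26, 253 and 1773 in the PIC replicates in that order, against 5, 6 and 84 in the satellite replicates. Its arrays overlapped and it was not called (difference 4.06, adjusted p = 0.0894). With the replicate number as a block it was called (adjusted p = 0.00413), and the differences within replicate numbers 1, 2 and 3 were 2.38, 5.40 and 4.40. The Has1 satellite mean was under the low value level with 1 array above it, so the size of these differences is uncertain. Has1 was also called with array weights, without PICs replicate 1 (adjusted p = 0.0271), without satellite replicate 3 (adjusted p = 0.0475) and without both arrays numbered 3. In both genes the array numbered 3 was the highest of its population. Has3 did not pass the filter.

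Other hyaluronan genes were read beside the synthases. Tnfaip6, which encodes the hyaluronan-binding protein TSG-6, had 453, 687 and 1658 in PICs against 103, 87 and 247 in satellite cells, again highest on the arrays numbered 3. It was 6.15-fold higher in PICs (adjusted p = 0.00866), a call lost without the filter and without both arrays numbered 2. Gfpt2, an enzyme of hexosamine synthesis, had 344, 435 and 971 in PICs against 105, 86 and 149 in satellite cells (2.25, adjusted p = 0.00397). The part of replicate number 3, or of what its arrays share, in these levels was not tested. Itih5, a relative of the heavy chains that are linked to hyaluronan, was 2.58-fold higher in PICs (adjusted p = 0.000208), and Cemip2, a surface hyaluronidase, 3.19-fold higher (adjusted p = 0.00308). Cd44, the main hyaluronan receptor, had 3709, 3884 and 4223 in PICs against 2797, 3014 and 4283 in satellite cells. Its arrays overlapped and the interval of its difference ran from -0.19 to 0.69. Hmmr, a hyaluronan-binding protein that also serves the mitotic spindle, was higher in satellite cells (-1.30, adjusted p = 0.00442).

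Aggrecan, the proteoglycan of cartilage, read highest on the array numbered 1 of each population. Acan had 81, 35 and 9 in PIC replicates 1, 2 and 3, against 169, 51 and 59 in satellite replicates 1, 2 and 3. The populations overlapped and the gene was not called (-1.44, 95% interval -3.49 to 0.62; adjusted p = 0.195). With the replicate block it was called higher in satellite cells (adjusted p = 0.0414). Col2a1, the main collagen of cartilage, had 2644, 1085 and 136 in PICs against 5385, 1585 and 410 in satellite cells, and Col9a1, Comp and Col11a2 also read highest on the array numbered 1 of each population. Sox9, a cartilage transcription factor, went the other way, with 270, 395 and 605 in PICs against 253, 399 and 448 in satellite cells, highest on the arrays numbered 3 and not called (0.17, adjusted p = 0.701). The summed intensity of the 6 cartilage markers was 4280, 2002 and 854 in PICs against 9049, 2883 and 1527 in satellite cells. Col11a2 alone of the 5 tested was called without the block (-1.96, adjusted p = 0.0304). This call was lost without the filter, without PICs replicate 2 or 3, without satellite replicate 1 or 3 (adjusted p up to 0.0866) and without both arrays numbered 2 or 3. With the block Col2a1 (adjusted p = 0.0127), Col9a1 (0.0249) and Comp (0.0157) were called too, all higher in satellite cells. The part of cartilage cells in the Acan values was not tested.

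**Figure D4:**
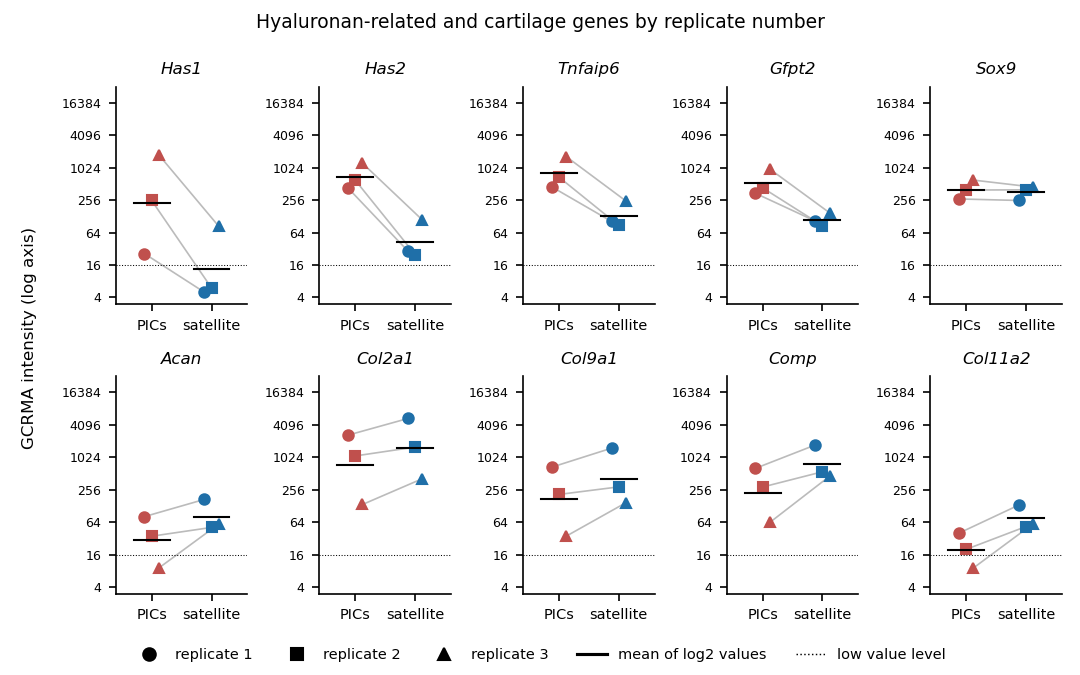
GCRMA intensity (log axis) of Has1, Has2, Tnfaip6, Gfpt2 and the cartilage marker Sox9 (top) and of Acan and 4 cartilage markers (bottom), PICs left and satellite cells right; grey lines join arrays of equal replicate number and black bars are means of the log2 values. The arrays numbered 3 are highest in both populations in the top row (Has1 at 1773 in PICs and 84 in satellite cells), and the arrays numbered 1 in the bottom row.

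Of the other genes of these pathways listed for the comparison, 64 were on the table and 53 were tested, with 20 called higher in PICs, 3 called higher in satellite cells and 30 not called. These were 37.7% and 5.66% of the 53, beside 16.7% and 13.0% of all genes tested in those directions. The median log2 difference was 0.79 over these 53 genes, 0.85 over the 41 tested members and -0.04 over all genes tested. Among linker and chain cofactors 5 of 9 tested genes (55.6%) were higher in PICs, beside 16.7% of all genes tested, and the other 4 were not called. Dse and Dsel, the epimerases that turn chondroitin into dermatan, were 7.12-fold (adjusted p = 4.67e-05) and 5.04-fold (adjusted p = 7.66e-05) higher in PICs. Dse had 1547, 1333 and 1363 in PICs against 188, 228 and 182 in satellite cells. Chpf and Chpf2, partners of the chondroitin synthases, were 5.53-fold and 6.40-fold higher (adjusted p = 0.000213 and 0.000185).

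Sulfate donor and sugar precursor genes were higher in PICs in 4 of 12 tested genes (33.3%, beside 16.7% of all genes tested), and the other 8 were not called. Papss2, which makes the sulfate donor PAPS, had 478, 499 and 478 in PICs against 114, 56 and 107 in satellite cells, a 5.51-fold difference (adjusted p = 0.000497). Papss1, its paralog, differed by -0.18 (95% interval -0.50 to 0.15). Gfpt1 and Ugp2 differed by 1.41 and 1.14, and Ugdh, which makes the glucuronic acid donor, by 0.88 (adjusted p = 0.00511), under the threshold. Lysosomal enzymes of chain breakdown were higher in PICs in 3 of 11 (27.3%, beside 16.7% of all genes tested), namely Naglu (1.55), Hexa (1.49) and Glb1 (1.36).

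Of 7 further genes listed as proteoglycans and tested, 4 (57.1%) were called with PICs above and 1 (14.3%) with satellite cells above. Over all genes tested these shares were 16.7% and 13.0%. The 7 include Smc3, which was not called (-0.52). Ptprz1, a receptor phosphatase that carries chondroitin sulfate, had 157, 93 and 97 in PICs against 1129, 1050 and 918 in satellite cells, a difference of -3.20 (adjusted p = 0.000107). Nrp1, Dcn, Bgn and Tgfbr3 were the 4 higher in PICs, at 2.65, 2.09, 1.97 and 1.38. Of the 6 proteases known to cleave versican or related cores, Adamts5 was higher in PICs (1.01, adjusted p = 0.00852) and Adamts20 higher in satellite cells. These were 16.7% in each direction, near the 16.7% and 13.0% of all genes tested. The Adamts5 call was lost with log2(value + 16), without PICs replicate 1 or 2, without satellite replicate 2 or 3, and without both arrays numbered 1 or 2, with a difference as low as 0.89 with 1 array left out. Adamts20 had 147, 106 and 182 in PICs against 735, 765 and 1031 in satellite cells (-2.56, adjusted p = 0.000245). Adamts4 was not called (1.11, adjusted p = 0.243) except with array weights and with the replicate block (adjusted p = 0.00585 with the block).

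Probe sets of 1 gene were compared for the 15 members with several above the filter. Within each of the 15 genes all probe sets had a difference of the same sign. The calls differed between probe sets in 2 of them, Gpc4 and Sulf2. Each probe set tested on its own gave 27.9% called among 18433.

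**Figure D5:**
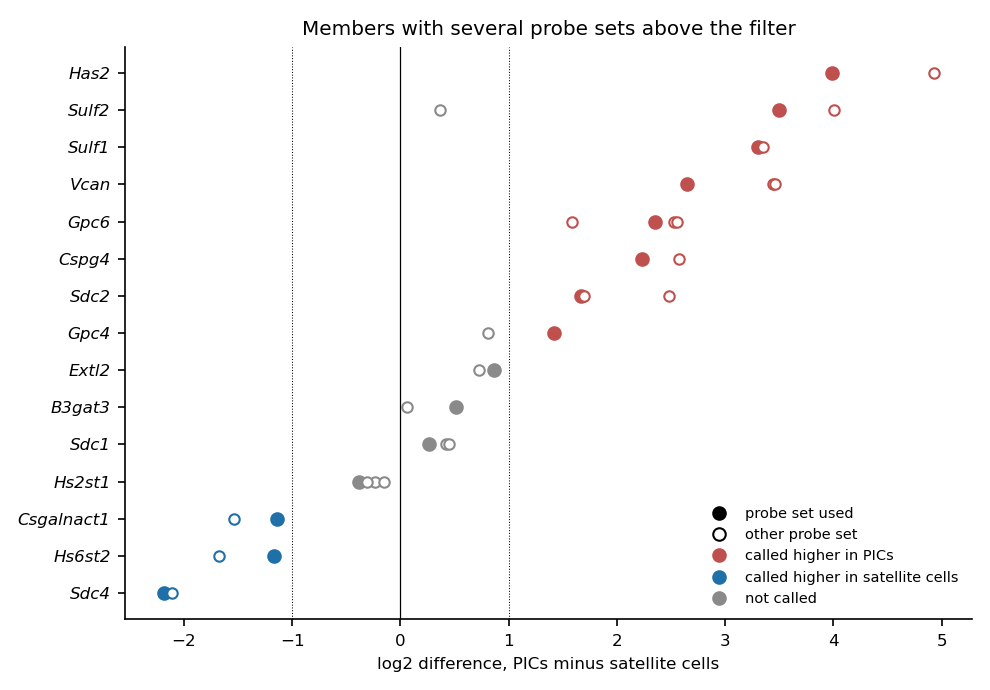
Log2 difference (PICs minus satellite cells) of each probe set above the filter for the 15 genes with more than 1, filled for the probe set used and open for the others; colours give the call of each probe set. All points of a gene lie on the same side of 0, and Sulf2 spans 0.37 to 4.0.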

How the data were processed

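Biotinylated cRNA from 200 ng of total RNA was hybridised to 1-colour Affymetrix arrays, 1 sample each, per the labels. The deposited intensities come from GCRMA per the submitters' processing notes, which give no version. As a method, GCRMA corrects background by probe sequence, normalizes by quantiles and gives 1 value per probe set. They are whole numbers on a linear scale, with a lowest value of 2, and were taken to log2. GCRMA draws unexpressed probe sets to a common floor, which narrows their spread, and rounding makes low steps coarse. No scan date was used, and scans were not tested as batches.

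Probe sets were named by the platform annotation, and old symbols were replaced through the RefSeq gene table (GRCm38.p6): 34945 had 1 symbol (34741 matched), 932 several and 9160 none. Those with several or none were left out, among them 3 that list a member beside another gene. Xylt1, Ndst1 and Hs3st5 were not analysed here. A member's probe set was the same with and without the filter for all 59.

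Differences (PICs minus satellite cells) were fitted over 10855 genes with limma 3.58.1 (lmFit, eBayes, two-sided) in R 4.3.3, and p-values were adjusted by Benjamini-Hochberg over that whole set. The p-values measure the spread between 3 arrays per population, which also limits precision. Where a population had no array above the low value level, the fold is a bound, the other mean minus 4 on the log2 scale, written "at least". Members, gene lists and named genes were chosen with earlier results of these data known. Every member could be named; of other pathway genes, up to 4 called genes of largest difference per list and direction, and uncalled ones where a sentence turns on them (B4galt7 is an exception).

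The populations carry the same replicate numbers, without a label that says what a number stands for. Deviations from population means over the 10855 genes correlated at 0.623, 0.222 and 0.579 for equal numbers and at -0.568 to 0.0363 for unequal ones, across genes, which are not independent of each other. The numbers thus pair the arrays by the data; fits with the number as a block are given where they change a call.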

Additional observations from a re-analysis of the deposited data

How the results depend on the processing

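Alternatives changed the filter, the probe set rule, the log offset, the variance model, array weights, the normalization, the replicate block, the arrays used or the call threshold; fits without both arrays of a number and the next brightest probe set were chosen after seeing the data. Of 748 single-gene values under these settings, 707 kept their direction and side of the threshold. Of the 22 called members, 16 kept their call in every setting that gave them a value. Members called higher in PICs numbered 14 to 19 and those higher in satellite cells 4 to 7, except that with no minimum difference 25 were higher in PICs (27.6% of all genes tested were, and 56.3% in either direction); other pathway genes higher in PICs then numbered 33, against 20. With the replicate block 17 members were higher in PICs and 7 in satellite cells, Has1 and Acan being the additions, and no member lost its call. The median log2 difference of tested members, 0.85, was 0.27 without the filter, which adds 18 genes near the floor, 0.63 to 0.87 with 1 array left out, and 0.61 to 0.79 with both arrays of a number left out. Chst7, not called at -0.36, ranged from -0.72 to 0.14 with 1 array left out (0.14 without PICs replicate 3) and was 0.02 without both arrays numbered 3. Hs3st1 and Chst11 lost their calls without the filter and with log2(value + 16), where they differed by 0.91 and 0.83, and without both arrays numbered 2. Chst11 lost its call without both arrays numbered 3 as well. Gpc4 and Sulf2 lost theirs on the next brightest probe set (0.81 and 0.37). Extl3 was under 2-fold without both arrays numbered 1 (0.95), and Csgalnact1 without both numbered 3 (-0.98). Ext1 was called with array weights (1.14) and so were Chst1 (1.21), Has1 and Hs3st3b1. Ext1 and Has1 were also called without both arrays numbered 3. Xylt2 (1.07) and Extl2 (1.01) were called without PICs replicate 1, Chst1 without PICs replicate 3 and Hs3st3b1 without satellite replicate 1 (-1.31). Without both arrays numbered 2, the calls of Gfpt2, Hmmr, Cemip2 and S100b were lost. Genes close to an intensity of 16 are limited by the floor of the values.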

Other observations

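Arrays of equal replicate number shared high and low values for several of these genes, as they did over all genes tested. Among the 41 tested members, 13 were highest on the array numbered 3 in both populations (31.7%), beside 28.3% of all genes tested. They include Has1, Has2, Sulf1, Sulf2, Chsy3 and Gpc4. On the arrays numbered 1 this held for Acan, Chst1 and Chst15 (7.32%, beside 12.6% of all genes tested). On those numbered 2 it held for 6 members (14.6%, beside 8.47%), among them Gpc1, Hs6st2 and Sdc2. What a replicate number marks is not given in the sources used here, and its part in these values was not tested.

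Chst2 differed between the populations in this, being lowest among PIC arrays on the one numbered 3 (72) and highest among satellite arrays on the one numbered 3 (23). Its differences within numbers 1, 2 and 3 were 4.0, 3.92 and 1.65 on the log2 scale.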
